A study of Mus musculus with 10 samples.

Results

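Etnppl and 6 other genes of phosphoethanolamine metabolism (Etnk1, Etnk2, Pcyt2, Chka, Pisd and Sgpl1) were followed by RNA sequencing in dorsal root ganglia, which hold the cell bodies of the sensory neurons that serve trunk and limbs. They were found by gene name in a table of 40481 Ensembl genes, 1 row each, and all 7 passed the filter on low counts that 18401 genes passed. Etnppl was chosen because of its higher level after oxaliplatin in these same libraries, so its values are described without a p-value. The 6 others were added for their place in the pathway, with results of these data already known. The study compared C57BL/6 mice given oxaliplatin, a platinum drug against colorectal cancer that damages sensory nerves, at 10 mg/kg (5 libraries, ganglia taken after 8 weeks of treatment) with mice given vehicle (5 libraries). All animals were of the same strain and no transgene is named. The labels do not say in words that each library came from a different animal, and the p-values then measure only the spread between these samples.

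Phosphoethanolamine is a small water-soluble molecule at a crossroads of membrane lipid metabolism. Cells make it by phosphorylating ethanolamine and by cleaving sphingosine 1-phosphate, and spend it on phosphatidylethanolamine, a main phospholipid of cell membranes that is also a donor of ethanolamine groups for other lipids and for membrane anchors of proteins. Ethanolamine-phosphate phospho-lyase, the product of Etnppl, destroys it instead, to acetaldehyde, ammonia and phosphate. Etnppl is known as a gene of liver and of astrocytes in the brain.

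Etnppl (ENSMUSG00000019232) stood alone among the 7 genes in the size of its difference. RefSeq places its first transcription start on the plus strand of chromosome 3 at position 130617448 of the mouse build GRCm38.p6, and a second start 127 bases further on. The 250 bases before the first start are shown because this is the gene whose level differed, with capitals marking the 123 bases that also lie within 250 bases before the second start (RefSeq, chr3:130617198-130617447, plus strand, 5′ to 3′).
Etnppl: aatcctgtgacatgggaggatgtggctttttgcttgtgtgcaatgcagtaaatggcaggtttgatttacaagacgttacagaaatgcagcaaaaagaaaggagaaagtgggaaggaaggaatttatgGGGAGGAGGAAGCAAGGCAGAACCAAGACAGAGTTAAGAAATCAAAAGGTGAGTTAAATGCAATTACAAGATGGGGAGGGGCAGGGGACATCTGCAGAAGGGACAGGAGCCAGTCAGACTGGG

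Windows from 250 bases before to 50 after a start were searched on both strands for 4 motifs: TGTTCT (a half-site of the glucocorticoid receptor), the full palindrome (AGAACA, any 3 bases, TGTTCT, which contains the half-site), the repeat bound by PPAR with RXR (AGGTCA, any 1 base, AGGTCA) and CACGTG (the E-box). RefSeq windows were found for 6 of the 7 genes (Pcyt2 was not matched), 8 windows in all, and none held any of the 4. Over all 32851 windows of the same length, 19.0% held TGTTCT, 0.00913% the palindrome, 0.0396% the repeat and 7.15% the E-box. The result says only that these letters are not in these windows.

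Levels are given as CPM, in which each count is scaled to its library's total and corrected for library composition. Etnppl stood at 20.7, 5.64, 16.8, 17.8 and 20.9 CPM in oxaliplatin replicates 1 to 5, and at 3.02, 2.55, 4.85, 3.37 and 2.31 CPM in vehicle replicates 1 to 5. The groups did not overlap: the lowest oxaliplatin library, replicate 2, lay 1.16-fold above the highest vehicle library, replicate 3. Groups lay apart for 4.02% of all tested genes, 2.25% with oxaliplatin higher and 1.77% with oxaliplatin lower. Oxaliplatin libraries averaged 16.4 ± 6.26 CPM (SD, n = 5) and vehicle libraries 3.22 ± 0.998 CPM (SD, n = 5), a log2 fold change of 2.34 ± 0.36 (SE), or 5.08-fold. The counts behind these values ran from 330 to 1254 in oxaliplatin libraries and from 124 to 271 in vehicle libraries. By log2 fold change Etnppl was number 9 of 12279 genes with a mean of at least 2 CPM and a name other than a predicted or clone name. That rank uses the values by which Etnppl was chosen and does not weigh spread. The genes ranked just above it had SEs of 1.10 to 1.33.

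The oxaliplatin libraries were not alike. Replicates 1, 3, 4 and 5 stood 6.43, 5.21, 5.53 and 6.50 times the vehicle mean and replicate 2 stood 1.75 times that mean. Without replicate 2 the oxaliplatin mean was 19.0 ± 2.09 CPM (n = 4), and the log2 fold change was 2.56, or 5.92-fold. The SD of log2 CPM among oxaliplatin libraries was 0.79, above that of 94.4% of tested genes, and among vehicle libraries it was 0.41, above 77.5%. When each library was left out in turn, the log2 fold change stayed between 2.24 and 2.56. GENCODE M21, a mouse annotation of GRCm38, lists no gene that overlaps Etnppl on either strand.

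**Figure D1:**
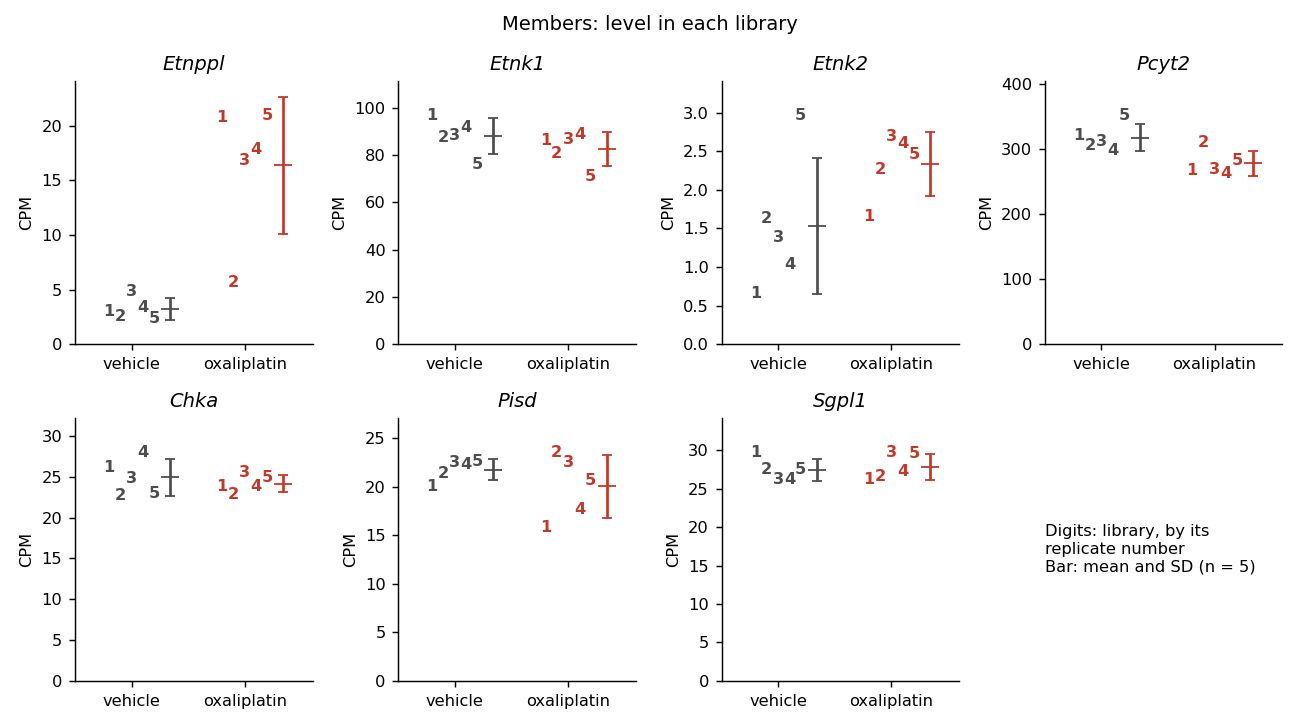
Level of each of the 7 genes (y axis, CPM, from 0) in 5 vehicle libraries (grey) and 5 oxaliplatin libraries (red); each digit is a library by its replicate number, and the bars are the mean and SD (n = 5). Etnppl is the gene whose groups are apart, with oxaliplatin replicate 2 at 5.64 CPM close to the vehicle libraries, while the groups of the other 6 overlap.

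Among the 6 genes around it, none passed the threshold (an adjusted p below 0.05 in edgeR's quasi-likelihood test, by the Benjamini-Hochberg method over all genes), in either direction. Of all tested genes 2.04% passed it, 1.27% higher and 0.772% lower. At an unadjusted p below 0.05, where 16.3% of all tested genes lay, there was 1 of the 6, Pcyt2, and DESeq2 and limma voom likewise called 0 of the 6. Their log2 fold changes ran from -0.19 to 0.61, with a median of -0.07 beside 0.01 over all tested genes, and the groups overlapped for each. With Etnppl counted, 1 of the 7 was past the threshold on the higher side. Since Etnppl was chosen by this comparison nothing is read from that count, which was 0 without vehicle replicate 4 and 0 with oxaliplatin replicate 1 and vehicle replicate 5 both left out.

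No kinase that makes phosphoethanolamine from ethanolamine passed the threshold. Etnk1, the ethanolamine kinase with the higher level here, stood at 86.1, 80.6, 86.7, 88.8 and 70.8 CPM after oxaliplatin and at 96.9, 87.3, 88.4, 91.8 and 76.2 CPM after vehicle. Replicate 5 was the lowest library in both groups, with a log2 fold change of -0.09 ± 0.08 (edgeR adjusted p = 0.598). Etnk2, its paralog, stood at 1.65, 2.26, 2.68, 2.60 and 2.45 CPM after oxaliplatin and at 0.651, 1.63, 1.38, 1.04 and 2.96 CPM after vehicle. Of the vehicle libraries 4 lay below every oxaliplatin library, and vehicle replicate 5 lay above all of them. With 36 to 161 counts in a library, its log2 value of 0.61 ± 0.31 (edgeR adjusted p = 0.352) became 0.99, or 1.99-fold, without vehicle replicate 5, still short of the threshold. Chka, a kinase that accepts choline and ethanolamine, stood at 23.8, 22.8, 25.5, 23.8 and 24.9 CPM after oxaliplatin and at 26.2, 22.7, 24.8, 28.0 and 22.9 CPM after vehicle. Its oxaliplatin libraries all lay within the vehicle range (log2 fold change -0.05 ± 0.08, edgeR adjusted p = 0.846).

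Pcyt2, which activates phosphoethanolamine with CTP and sets the pace of phosphatidylethanolamine synthesis from it, was the member with the largest value below 0. It stood at 267, 310, 268, 263 and 281 CPM after oxaliplatin and at 321, 306, 311, 298 and 351 CPM after vehicle. The 4 oxaliplatin libraries other than replicate 2 lay below every vehicle library, and replicate 2 lay within the vehicle range. The means were 278 ± 19.2 and 317 ± 20.9 CPM (n = 5 and 5), with a log2 fold change of -0.19 ± 0.06 (edgeR adjusted p = 0.126, and 0.0557 to 0.368 over the alternatives). Oxaliplatin replicate 2 was thus the library nearest to vehicle for both Etnppl and Pcyt2.

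The other enzymes that feed the pool or its product lay close to 0 on the log2 scale. Pisd, which makes phosphatidylethanolamine in mitochondria by removing the carboxyl group of phosphatidylserine, stood at 15.8, 23.6, 22.6, 17.6 and 20.6 CPM after oxaliplatin and at 20.1, 21.3, 22.5, 22.3 and 22.6 CPM after vehicle. Oxaliplatin replicates 1 and 4 lay below all vehicle libraries and replicate 2 above all of them (log2 fold change -0.12 ± 0.10, edgeR adjusted p = 0.631). Pisd has transcribed copies, Pisd-ps1 and Pisd-ps2, with 288 to 732 counts per library, so how reads were shared between these genes is uncertain. Sgpl1, the lyase that cuts sphingosine 1-phosphate into phosphoethanolamine and an aldehyde, stood at 26.2, 26.6, 29.7, 27.2 and 29.6 CPM after oxaliplatin and at 29.8, 27.5, 26.2, 26.2 and 27.5 CPM after vehicle. The groups covered nearly the same range, with a log2 fold change of 0.02 ± 0.07 (edgeR adjusted p = 0.923).

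Levels were compared between genes per kilobase of exon in GENCODE M21, since longer transcripts give more counts; which transcripts were counted is not known. In vehicle libraries Pcyt2 led with 73.0 ± 4.8 CPM per kb (SD, n = 5), followed by Etnk1 at 6.23 ± 0.538, Sgpl1 at 4.46 ± 0.238 and Pisd at 3.79 ± 0.187. Below them came Chka at 2.07 ± 0.186, Etnppl at 0.390 ± 0.121 and Etnk2 at 0.335 ± 0.193. The ranges of neighbours in this order did not overlap except for Etnppl (0.280 to 0.587) and Etnk2 (0.143 to 0.649). After oxaliplatin Etnppl stood at 1.98 ± 0.758 CPM per kb (0.683 to 2.53), a range that held all of Chka (1.89 to 2.12) and lay above all of Etnk2 (0.362 to 0.588).

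**Figure D2:**
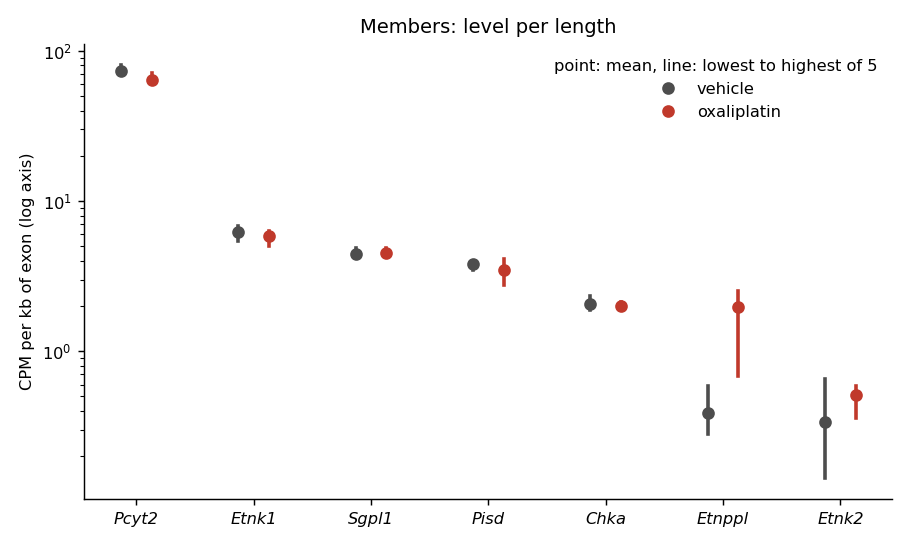
Level of the 7 genes per kilobase of exon (y axis, CPM per kb, log axis) in vehicle (grey) and oxaliplatin libraries (red), in order of the vehicle mean; points are means and lines run from the lowest to the highest of 5 libraries. Pcyt2 is far above the others in both groups, and Etnppl moves from 0.390 beside Etnk2 to 1.98 beside Chka.

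The wider pathway was described with a list of 76 genes in 12 roles, of which 74 had enough counts to be tested. Of the 67 tested genes that are not among the 7 members, 3 were past the threshold on the higher side (edgeR adjusted p below 0.05), Acer2, Pld1 and Glul, and 0 on the lower side, where all tested genes gave 1.27% and 0.772%. At an unadjusted p below 0.05 there were 15 of the 67 in either direction, where all tested genes gave 16.3%. DESeq2 and limma voom also called 0 lower, and without vehicle replicate 2 there was 1, Peds1. The median log2 fold change of the 67 was -0.04, beside 0.01 over all tested genes. With Etnppl, whose place in the count follows from its choice, 4 genes of the list were called higher, and 2 when oxaliplatin replicate 4, oxaliplatin replicate 5, vehicle replicate 1 or vehicle replicate 4 was left out.

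Pld1, a phospholipase D that releases head groups from phospholipids, rose from 7.03 ± 0.471 to 10.6 ± 1.24 CPM (n = 5 and 5). The oxaliplatin libraries lay at 11.2, 8.89, 12.1, 9.82 and 11 CPM and the vehicle libraries at 6.78, 7.30, 7.56, 7.14 and 6.36 CPM. No vehicle library reached the lowest oxaliplatin library, again replicate 2. On the log2 scale the change was 0.59 ± 0.11, or 1.51-fold (edgeR adjusted p = 0.0127), a call kept in all 10 fits that left out 1 library. Pld2, its paralog, was at -0.10 ± 0.11 (edgeR adjusted p = 0.71).

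Acer2, a Golgi ceramidase that frees sphingosine from ceramide, rose from 3.94 ± 1.67 to 11.8 ± 3.88 CPM (n = 5 and 5). Its oxaliplatin libraries lay at 11.1, 6.05, 11.6, 16.5 and 13.8 CPM and its vehicle libraries at 3.15, 2.28, 4.13, 3.45 and 6.69 CPM. Oxaliplatin replicate 2 lay below vehicle replicate 5, and all other oxaliplatin libraries lay above every vehicle library. On the log2 scale the change was 1.58 ± 0.32 (edgeR adjusted p = 0.0355). The call was kept without oxaliplatin replicate 2 or vehicle replicate 5 and lost without any 1 of the other 8 libraries (adjusted p up to 0.112), and it was also lost with no filter on low counts.

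Glul, glutamine synthetase, which binds ammonia, rose 1.30-fold, from 110 ± 9.21 to 144 ± 16.3 CPM (n = 5 and 5). The oxaliplatin libraries lay at 144, 119, 164, 142 and 149 CPM and the vehicle libraries at 100, 104, 119, 106 and 121 CPM. Only oxaliplatin replicate 2 fell within the vehicle range. On the log2 scale the change was 0.38 ± 0.08 (edgeR adjusted p = 0.0223). That call was lost when oxaliplatin replicate 4, oxaliplatin replicate 5, vehicle replicate 1 or vehicle replicate 4 was left out (adjusted p up to 0.0733). Glul is also a marker of satellite glia, the cells that wrap sensory neuron bodies.

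None of the steps from ethanolamine to phosphatidylethanolamine and its relatives had a called member. Beside the members above, the choline kinase Chkb was at 0.24 ± 0.11 (log2 fold change ± SE, edgeR adjusted p = 0.285), the choline enzyme Pcyt1a at -0.05 ± 0.06 (edgeR adjusted p = 0.736) and Selenoi, the last enzyme of the ethanolamine branch, at 0.01 ± 0.09 (edgeR adjusted p = 0.964). Cept1, which serves both branches, was at -0.19 ± 0.07 (edgeR adjusted p = 0.203) and Chpt1, of the choline branch, at 0.16 ± 0.11 (edgeR adjusted p = 0.506). Of the enzymes that exchange or methylate the head group, Pemt was at -0.15 ± 0.10 (edgeR adjusted p = 0.466). Of the 9 genes of diacylglycerol supply, 0 were past the threshold in the main fit. Among them Lpin3, a phosphatidate phosphatase, was at 0.90 ± 0.24 with no overlap between groups (edgeR adjusted p = 0.0638). Lpin3 passed in 3 of 18 alternatives. These were DESeq2 (adjusted p = 0.0124), the stricter filter (edgeR adjusted p = 0.0488) and the fit without vehicle replicate 4 (edgeR adjusted p = 0.0398). Dgat1, which uses diacylglycerol for triglyceride, was at 0.31 ± 0.11 (edgeR adjusted p = 0.149).

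Genes close to Etnppl in function also fell short of the threshold. Phykpl, its closest paralog, a lyase of phosphohydroxylysine, was at 17.5, 14.3, 15.0, 14.1 and 17.9 CPM after oxaliplatin and at 12.8, 13.7, 14.4, 14.0 and 11.8 CPM after vehicle. The groups overlapped, with a log2 fold change of 0.24 ± 0.10 (edgeR adjusted p = 0.233). Its exons overlap those of Hnrnpab on the opposite strand, and without a statement on strand their reads cannot be told apart. Phospho1, a phosphatase of phosphoethanolamine and phosphocholine, had 11 to 36 counts per library, too few for a precise value (0.16 ± 0.39, edgeR adjusted p = 0.889).

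In the main fit the remaining roles showed no called gene apart from those above. In the sphingosine 1-phosphate arm, the ceramidase Asah1 was at -0.13 ± 0.06 (edgeR adjusted p = 0.275), and 10 of its 11 members lay between -0.23 and 0.08. Carriers of ethanolamine and choline had 6 of 8 members tested; Slc44a3, at 13 to 95 counts per library, was at 0.87 ± 0.35 (edgeR adjusted p = 0.215) and Slc44a1 at -0.11 ± 0.07 (edgeR adjusted p = 0.471). Pnpla7, a lysophospholipase, was at 0.52 ± 0.16 (edgeR adjusted p = 0.108). It passed in 2 of 18 alternatives, DESeq2 (adjusted p = 0.0377) and the fit without oxaliplatin replicate 2 (edgeR adjusted p = 0.0303). Among 9 genes of ether lipids and plasmalogens, the ethanolamine lipids with a vinyl ether bond, 7 were below 0 and the median was -0.12. Peds1, which makes that bond and is listed under its older symbol Tmem189, was at -0.26 ± 0.09 (edgeR adjusted p = 0.146), and Pla2g6 at -0.15 ± 0.07 (edgeR adjusted p = 0.294). Of 5 enzymes of the anchors that take phosphoethanolamine, none passed, with Pigf at -0.14 ± 0.10 (edgeR adjusted p = 0.524) and Pigo at -0.08 ± 0.09 (edgeR adjusted p = 0.728). Aldh1b1, which oxidises acetaldehyde, was at 0.22 ± 0.09 (edgeR adjusted p = 0.245).

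**Figure D3:**
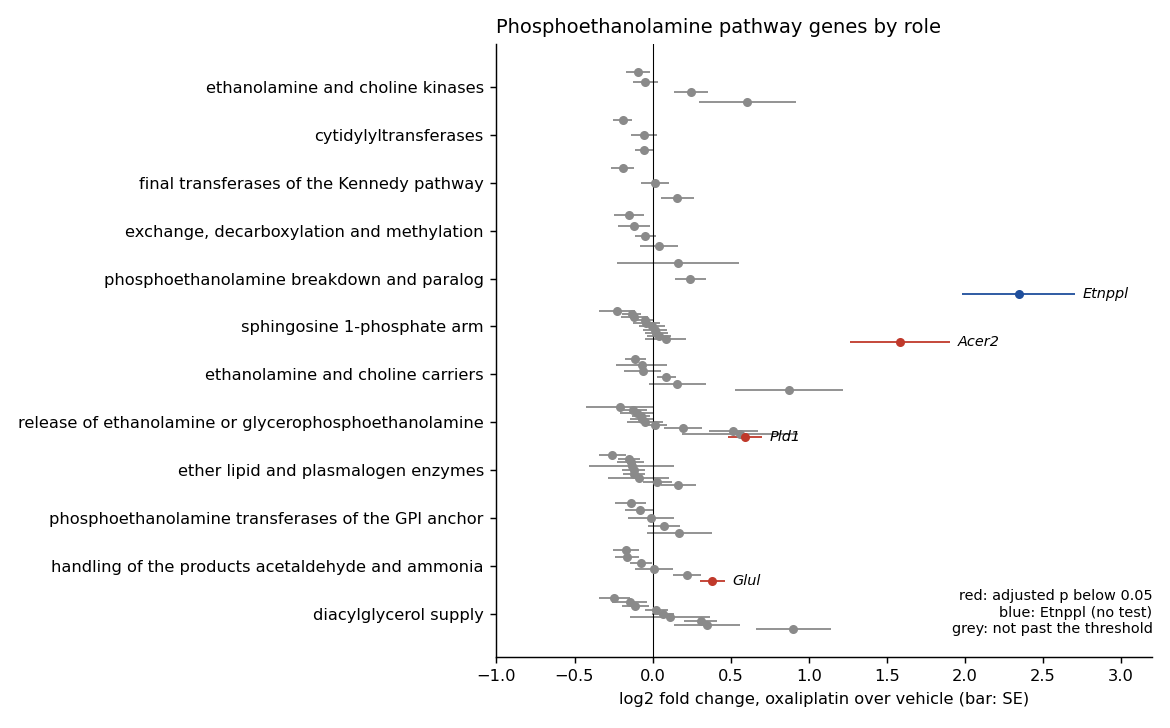
Log2 fold change of oxaliplatin over vehicle (x axis, bars are SE) for 74 tested pathway genes, grouped by role on the y axis; red points passed the threshold, grey ones did not, and Etnppl (blue) is shown without a test. Etnppl at 2.34 and Acer2 at 1.58 stand to the right, while most genes lie close to 0.

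The 10 genes whose pattern over the 10 libraries was most like that of Etnppl were taken by the smallest root mean square difference in log2 CPM, after centring each gene on its own mean. They came from 12278 genes with a mean of at least 2 CPM, for which the median of this difference was 1.27. The choice uses the whole pattern of Etnppl, so these genes had to be higher after oxaliplatin and to resemble it library by library, replicate 2 included, and no p-value is given. The nearest was Slc43a1, a carrier of large neutral amino acids, at a difference of 0.346. It stood at 8.04, 2.91, 6.10, 9.60 and 10.9 CPM after oxaliplatin and at 1.83, 1.35, 3.24, 1.55 and 2.01 CPM after vehicle. As for Etnppl, the lowest oxaliplatin library was replicate 2 and the highest vehicle library was replicate 3.

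Next came the transcription factor Zbtb16 (0.438), the membrane dipeptidase Dpep1 (0.448), the membrane protein Ms4a4a (0.520) and Pdk4, a kinase that restrains the use of glucose in mitochondria (0.534). They were followed by Cyp26b1, which breaks down retinoic acid (0.548), the amine methyltransferase Inmt (0.562), Fam107a (0.578), the peptide gene Adm (0.584) and Acer2 (0.616). Their log2 fold changes ran from 1.36 ± 0.30 for Cyp26b1 to 2.02 ± 0.18 for Zbtb16, all below that of Etnppl. As that choice favours, the lowest oxaliplatin library was replicate 2 in 9 of the 10, the exception being Adm, with 3.91 CPM in replicate 2 and 3.86 CPM in replicate 3. Acer2 was thus the only gene of the pathway list, Etnppl aside, among the 10. RefSeq windows were found for 9 of these 10 genes (Zbtb16 was not matched). Of those, only Fam107a held TGTTCT and only Slc43a1 held CACGTG, a search made after the genes were known.

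**Figure D4:**
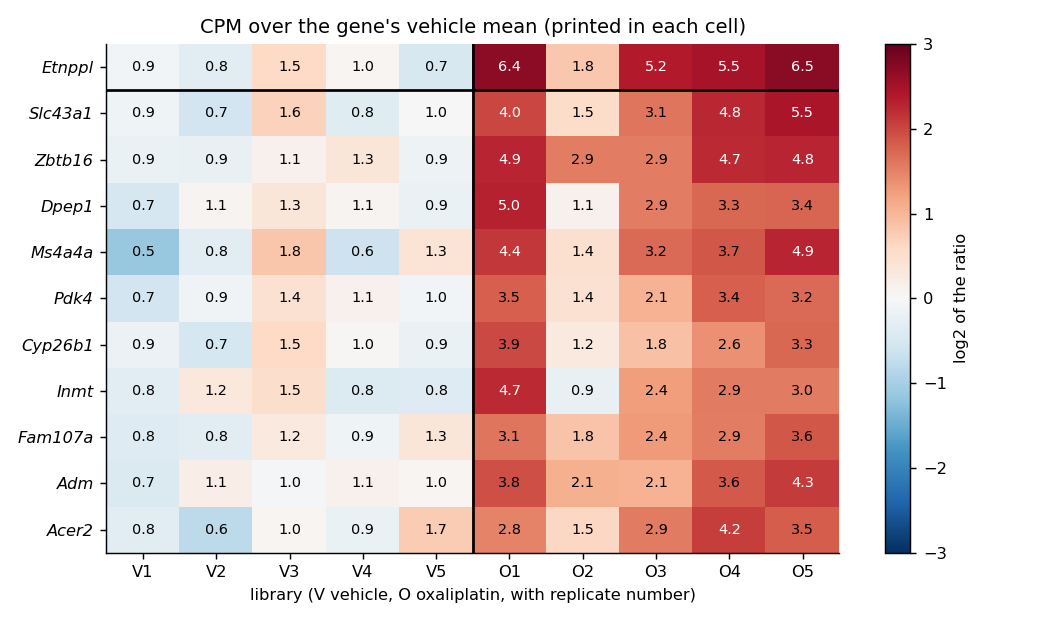
Level of Etnppl (top row) and of the 10 genes most like it in pattern, as the ratio to the gene's own vehicle mean (printed in each cell; colour is the log2 of the ratio), in 5 vehicle libraries (V) and 5 oxaliplatin libraries (O). Etnppl reaches 6.43 and 6.50 times its vehicle mean in oxaliplatin replicates 1 and 5 and 1.75 times in replicate 2; the choice of genes favours this shared pattern.

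In bulk tissue, more cells that make a transcript and more transcript per cell cannot be told apart, and which cells made Etnppl was not measured. Library totals ran from 52963470 to 60984426 counts, and over the series 234 genes were called higher and 142 lower, or 303 and 99 with no correction for library composition. The 8 sensory neuron markers were all tested and summed to 14688 to 16225 CPM after oxaliplatin and 15893 to 18304 CPM after vehicle. Satellite glia markers (8 of 8 tested) summed to 3404 to 4675 CPM after oxaliplatin and 3878 to 5738 CPM after vehicle, with Glul called higher and Fabp7 called lower (-0.98, edgeR adjusted p = 0.0298, and above 0.05 in 7 of 10 fits without 1 library).

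Central astrocyte markers (9 of 9 tested, 0 called) summed to 110 to 152 CPM after oxaliplatin and 99.4 to 137 CPM after vehicle, ranges that overlap. Oligodendrocyte markers (4 of 6 tested, 0 called), of the central nervous system, summed to 46.9, 45.0 and 43.8 CPM in oxaliplatin replicates 3, 4 and 5. They summed to 20.8 and 21.6 CPM in replicates 1 and 2 and to 15.8 to 20.5 CPM after vehicle. Mobp (up to 26.9 CPM after oxaliplatin) and Cldn11 (up to 23.2 CPM) made up most of these sums. Mog reached at most 1.37 CPM in any library, and Ermn, Opalin and Hapln2 less. Of 9 hepatocyte markers Fgb was at 0 in all libraries, and Alb, the albumin gene, had 0 counts in every vehicle library and 0 to 14 after oxaliplatin. The sum of that list was 74.3 CPM in oxaliplatin replicate 1, of which Cyp2e1 made 72.6 CPM, and 5.17 to 11.3 CPM in all other libraries.

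Fat cell markers (6 of 8 tested, 0 called) summed to 697 CPM in oxaliplatin replicate 1 and to 16.9 to 48.1 CPM in the other oxaliplatin libraries, against 8.47 to 34.9 CPM after vehicle. Without oxaliplatin replicate 1 the log2 fold change of Etnppl was 2.25. With vehicle replicate 5 also left out, a library low in fat cell markers (9.69 CPM), the log2 fold change of Etnppl was 2.15. Lists of blood vessel cells had called members, where all tested genes gave 1.27% higher and 0.772% lower. Endothelial markers summed to 181 to 213 CPM after oxaliplatin and 121 to 190 CPM after vehicle, with Pecam1, Cdh5 and Vwf of 8 called higher. The endothelial markers that were not called had log2 fold changes of 0.006 to 0.50. Pericyte and smooth muscle markers summed to 169 to 242 CPM and 143 to 171 CPM, with Kcnj8 and Abcc9 of 8 called higher. Those of this list that were not called ran from -0.02 to 1.06. The 5 called vessel markers were named after their values were seen, and they kept their calls in 9, 3, 3, 10 and 6 of 10 fits without 1 library. Fibroblast markers summed to 888 to 1116 CPM and 736 to 964 CPM, with Pdgfra of 7 called higher (3 of 10 fits). Most of these sums was Dcn, at 660 to 848 CPM after oxaliplatin and 471 to 689 CPM after vehicle. The fibroblast markers that were not called lay on both sides of 0, with log2 fold changes of -0.42 to 1.12. Schwann cell markers (0 of 8 called) summed to 8321 to 11245 CPM and 7570 to 10344 CPM. Macrophage markers summed to 27.3 to 39.2 CPM and 30.0 to 54.5 CPM, with Cx3cr1 of 8 called lower (8 of 10 fits). The macrophage markers that were not called lay on both sides of 0, with log2 fold changes of -1.40 to 0.44. Skeletal muscle markers (0 of 6 called) summed to 723 CPM in oxaliplatin replicate 1, 9.61 to 24.2 CPM in the other oxaliplatin libraries and 96.8 to 479 CPM after vehicle. The part of the vessel, oligodendrocyte, fat and muscle signals in the difference of Etnppl was not tested.

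**Figure D5:**
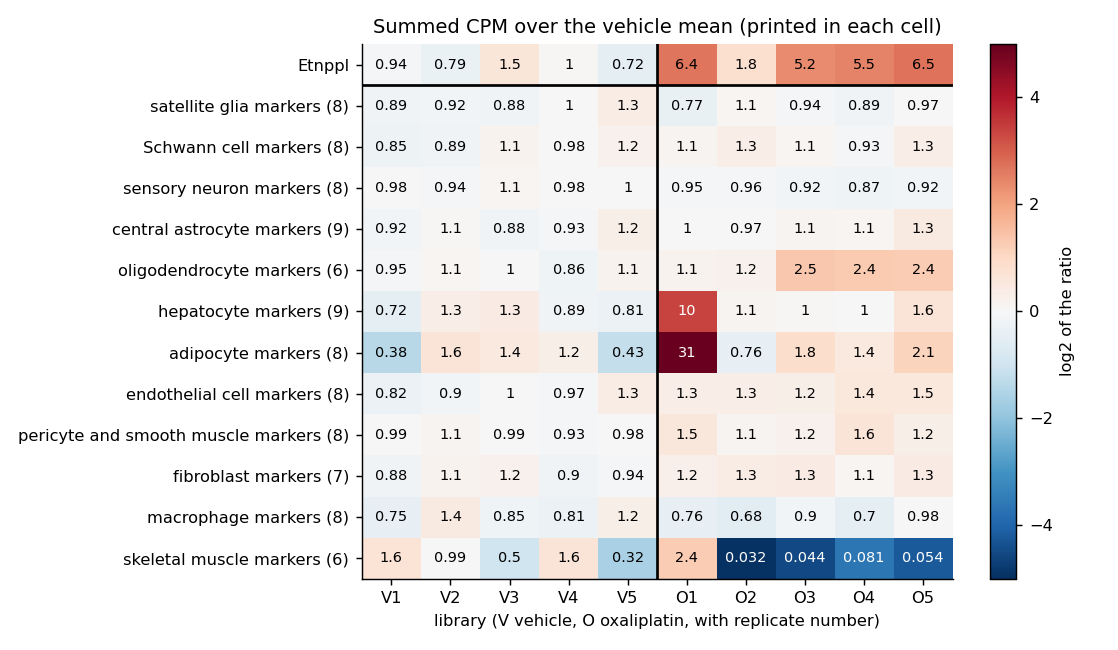
Etnppl (top row) and the summed CPM of each marker list (number of markers in parentheses), as the ratio to the vehicle mean (printed in each cell; colour is the log2 of the ratio), in 5 vehicle libraries (V) and 5 oxaliplatin libraries (O). Fat cell markers (697 CPM), skeletal muscle markers (723 CPM) and hepatocyte markers (74.3 CPM) all peak in oxaliplatin replicate 1. Oligodendrocyte markers are highest in oxaliplatin replicates 3, 4 and 5.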

How the data were processed

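Bulk RNA was sequenced from dorsal root ganglia in 10 libraries, which the labels' titles and treatment field assign to oxaliplatin (5) or vehicle (5). Whole-number read counts per Ensembl gene, not normalized, are what the authors deposited. Ganglia stored in RNAlater gave bead-purified RNA, and the libraries came from a SMARTer kit, per the labels' protocols. STAR 2.5.1a, Partek and DESeq2 appear without a role, per the submitters' processing notes. Genome build, annotation, counting step and strand setting: not given in the sources used here. Extra rows of an ID, identical in counts, were dropped (276 of 40757). Libraries of 1 group differed by more than sampling noise (chi-square over its degrees of freedom, 12.8 to 53.6), and each was 1 replicate.

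Differences were tested with edgeR 4.0.16 (R 4.3.3): filterByExpr, TMM factors, robust quasi-likelihood fits on the treatment alone, Benjamini-Hochberg adjustment over 18401 genes and a threshold of 0.05. Dividing the log2 fold change by the root of F gave its SE. The log2 CPM used a prior count of 2. The procedure was tested on counts simulated from each gene's mean and fitted dispersion, with known fold changes. No library that departs from its group was simulated, so that test does not cover such libraries. The members and lists were chosen with earlier results of these data known. Named genes are the 7 members, called genes of the pathway list with up to 2 of smallest p per role, and the 10 nearest to Etnppl. Outside that rule, Selenoi, Phospho1, Pld2, Gde1 and the markers given by name, called or not, were named after their values were seen. Alternatives were RLE or no composition factors, no or a stricter filter (1 CPM in 5 libraries), DESeq2 1.42.0, limma 3.58.1 voom with quality weights, a replicate block, a threshold of 0.1 and leaving out libraries.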

Additional observations from a re-analysis of the deposited data

Results flagged for a closer look

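In the oxaliplatin group the lowest library for Etnppl, replicate 2 at 5.64 CPM, lay far from the other 4, which stood at 16.8 to 20.9 CPM. The gap to its nearest neighbour was 0.727 of the group's range. For Aldh1b1, an acetaldehyde dehydrogenase, vehicle replicate 5 at 9.95 CPM lay above the other 4 vehicle libraries, at 9.08 to 9.21 CPM, with a gap of 0.851 of the range. These were 2 of 88 groups checked, and chance flags about 1 group in 20.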

How the results depend on the processing

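Over all genes, 514 were higher and 408 lower with DESeq2, 439 and 365 with limma voom, 424 and 304 at a threshold of 0.1, and 142 and 76 with oxaliplatin replicate 1 and vehicle replicate 5 both left out. With 1 library left out the counts ran from 79 to 343 higher and from 34 to 251 lower; both ends below came without oxaliplatin replicate 4, and both ends above without oxaliplatin replicate 2. Leaving out oxaliplatin replicate 1 or 5, or vehicle replicate 1 or 4, also lowered both counts by over 1.5 times, and vehicle replicate 5 the lower count (88). Among the 7 members the count called higher was 0 to 1 when 1 library was left out and 0 without both libraries. Since Etnppl was chosen by this comparison, nothing is read from that count. The count called lower was 0 in every fit. In the pathway list, Etnppl included, the counts were 2 to 5 higher and 0 to 1 lower when 1 library was left out. With the replicate number as a block, 382 genes were higher and 278 lower, and 1 pathway gene, Gde1, was lower. Whether equal replicate numbers mark paired samples is not known, and the main fit treats the samples as unpaired. Same-numbered deviations correlated at -0.0379 to 0.212, and 3 of 5 oxaliplatin libraries correlated best with their own number. Those were replicates 1, 3 and 5, at 0.0917, 0.212 and 0.145, against at most 0.0593, 0.00309 and 0.00706 with another number. Of 791 values of 44 named genes over the alternatives, 728 kept direction and side of the threshold or, where no test applied, stayed within 1 SD, 55 lost a call, 6 gained one and 2 changed sign next to 0. With 1 library left out the log2 fold change of Chka ran from -0.0736 to 5.32e-06 (without vehicle replicate 4) and that of Sgpl1 from -0.00047 (without oxaliplatin replicate 3) to 0.0547. The causes were not tested. With a prior count of 0.5 all 10 genes nearest to Etnppl were the same. Library composition factors moved the median of all genes by at most 0.034 on the log2 scale.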
